A study of Mus musculus with 7 samples.

Results

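The Myc and Max network is a family of transcription factors that compete for a common partner. Myc, Mycn and Mycl bind DNA as dimers with Max and recruit coactivators to genes of growth, ribosome production and the cell cycle, whereas Mxd1, Mxd3, Mxd4, Mxi1 and Mnt pair with Max and bring corepressors to the same DNA motif, and Mga pairs with Max as a repressor too. In neural stem and progenitor cells, Myc and Mycn are known for sustaining division, and several Mxd genes are known for being switched on as cells leave the cycle. The 10 genes were taken from the expression table by their symbols, each symbol was found once among 24346 genes, and all 10 were among the 14151 genes whose average FPKM (fragments per kilobase of transcript, scaled to the mapped fragments of the library, a level per length that can be compared between genes) was at least 0.5 over 7 libraries.

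The libraries were RNA-seq of primary neural stem cells grown as neurospheres with FGF and EGF from the hippocampus of single 2-month-old C57/BL6 mice. The 4 controls (WT_215, WT_116, WT_213 and WT_220) came from littermates labelled wild type, which per the study's methods could carry floxed Med23 alleles without Cre. The 3 Med23 CKO libraries (KO_117, KO_214 and KO_218) came from Nestin-CreER:Med23 flox/flox mice, in which a tamoxifen-activated Cre driven by Nestin, a gene of neural progenitors, removes exons of the Mediator subunit Med23. Both groups had received tamoxifen (200 mg/kg by gavage on 5 days), so the drug itself was common to them, and the labels give 3 to 4 weeks of recovery before most experiments. For the hippocampal cultures, the study's methods place tamoxifen at a younger age than in its other experiments. Any cell in which Cre had not acted kept an intact Med23, and the table holds no value for the deleted exons alone. Comparing the groups asks whether loss of this Mediator subunit goes with another level of the network's transcripts.

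Med23 itself, counted over the whole gene, was at 11.4, 10.3, 12.9 and 10.1 FPKM in the controls and at 9.97, 9.27 and 8.12 FPKM in Med23 CKO. All CKO values of Med23 lay below all control values, with a difference of -0.26 on the log2(FPKM + 1) scale (SE 0.18, two-sided exact permutation p = 0.0571 for 4 against 3 libraries). The number of reads in each library is unknown, since the values are FPKM and showed no whole-read steps; between 16841 and 18113 genes were above 0 per library, and Pearson's r between libraries over the genes tested ran from 0.788 to 0.979. KO_214 stood apart from the others. Its mean log2(FPKM + 1) over 29 proliferation genes was 2.73, against 3.74 to 5.98 in the other libraries, and that over 16 microglia and macrophage genes was 5.58, against 1.84 to 3.75. The defining markers on the microglia list, 18 genes long, did not move together. Tmem119 was at 4.04 FPKM in KO_214 and between 0.0269 and 0.414 FPKM elsewhere, but P2ry12 was at 1.24 FPKM in KO_214 and 1.60 FPKM in WT_116, and Cx3cr1 at 0.157 FPKM in KO_214 and 0.782 FPKM in WT_213. Siglech was at 0.134 FPKM or less in every library. The endothelial list was also highest in KO_214 (mean log2 level 3.70, against 1.03 to 2.91 elsewhere), as was the list of mural cells and fibroblasts (4.74, against 0.73 to 2.28). KO_117 stood apart on another list, with the lowest mean of oligodendrocyte lineage markers (4.47, against 5.74 to 7.35 elsewhere). Mbp was at 66.5 FPKM in KO_117 and 238 to 2234 FPKM elsewhere. Olig1 and Olig2 of that list went the other way, at 1586 and 505 FPKM in KO_117, with only WT_220 higher. Neural stem cell markers were present in every library, with Vim at 708 to 1694 FPKM and Nes at 61.1 to 240 FPKM. Because these are bulk RNA values, fewer cells of a type and less RNA per cell cannot be told apart.

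The motif that the dimers bind, the E-box CACGTG, was looked for in RefSeq promoters (GRCm38.p6, 250 bases before to 50 after the start site), a palindrome that reads the same on both strands. The table held 9 of the 10 genes, with 11 promoters, and not Myc. The letters CACGTG stood in 3 of the 11 (27.3%), against 7.15% of all 32851 promoters. They were in the promoters of Max, Mxd4 and Mnt. The stretches below show these matches, with the E-box in capitals, since they place the network's own binding letters beside 3 of its genes.

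Max, chr12:76962226-76962271, minus strand: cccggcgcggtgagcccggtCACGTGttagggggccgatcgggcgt
Mxd4, chr5:34187904-34187949, minus strand: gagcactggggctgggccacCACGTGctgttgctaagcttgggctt
Mnt, chr11:74830781-74830826, plus strand: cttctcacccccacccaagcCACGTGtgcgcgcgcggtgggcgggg

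The first base of the E-box lay 3 bases before the start site in Max, 123 in Mnt and 219 in Mxd4. A match of letters is a description and no evidence of binding in these cells. Mycn held none of these letters but held 3 matches, the first of them overlapping with the next, to letters known as binding motifs of the E2F factors of the cell cycle (TTTGGCGC, TTTCGCGC or TTTCCCGC on either strand, chosen after the data were seen). Such a match stood in 1.84% of all promoters and in no other of the 11 promoters of the network's genes, among which Myc was missing. It is shown because Mycn was among the network genes that varied most between the libraries, with the matches in capitals.

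Mycn, chr12:12941977-12942039, minus strand: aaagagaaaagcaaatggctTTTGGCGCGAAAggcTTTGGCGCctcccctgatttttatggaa

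The matches began 183, 179 and 168 bases before the start site of Mycn.

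None of the 10 genes differed between Med23 CKO and control beyond the spread between libraries. With limma and Benjamini-Hochberg adjustment, every adjusted p was 0.9999, and 0 of the 14151 genes passed an adjusted p of 0.05 (0%). At an unadjusted p of 0.05, 0 of the 10 were lower, where 0.996% of all genes were, and 0 of the 10 were higher, where 0.502% of all genes were, and by the exact permutation test no member reached 0.05 either. Nor did the groups separate for any of the 10, while 0.784% of all genes had every CKO value above every control value and 1.53% had every CKO value below. Of the 10 differences, 9 were negative and that of Mga was 0.01. The median over all genes tested was -0.03 on the same log2(FPKM + 1) scale.

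**Figure D1:**
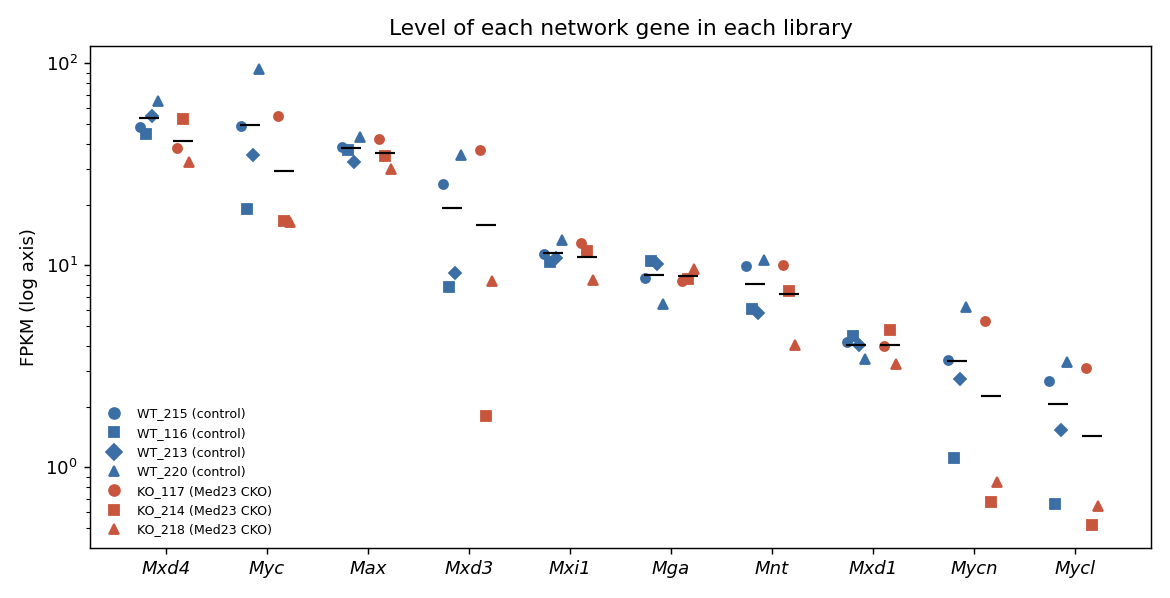
Level of each of the 10 genes in each library, in FPKM on a log axis, with 4 control libraries in blue, 3 Med23 CKO libraries in red and a black bar at the mean of each group. The groups overlapped for every gene, and Myc, Mxd3, Mycn and Mycl spread far more than Max, Mxd1, Mxi1 and Mga.

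Myc (chr15:61985391-61990374, plus strand, GENCODE M21 on GRCm38) encodes the member best known for driving ribosome production and division. Its levels were 48.8, 19.0, 35.2 and 94.1 FPKM in the controls WT_215, WT_116, WT_213 and WT_220. In the CKO libraries KO_117, KO_214 and KO_218 it was at 54.6, 16.6 and 16.4 FPKM. The CKO libraries thus held both lowest values, but KO_117 lay above 3 of the 4 controls. The means were 49.3 ± 32.3 FPKM in control (SD, n = 4) and 29.2 ± 22.0 in Med23 CKO (SD, n = 3), and the difference was -0.74 (SE 0.61, exact permutation p = 0.314). Leaving out each library in turn gave between -1.30, without KO_117, and -0.36, without WT_220. The study lists Myc among its downregulated genes, from Cuffdiff and with fewer control samples, so its call rests on another test and another set of samples.

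Mycn (chr12:12936093-12941914, minus strand), the paralog used by embryonic neural progenitors, was expressed far below Myc. It was at 3.39, 1.12, 2.74 and 6.25 FPKM in the controls and at 5.28, 0.676 and 0.848 FPKM in Med23 CKO, in the same order of libraries. KO_214 and KO_218 were the lowest, and KO_117 was second only to WT_220. The difference was -0.57 (SE 0.57, exact permutation p = 0.429, n = 4 and 3). It ran from -0.23 without KO_214, and -0.28 and -0.30 without WT_220 and KO_218, to -1.18 without KO_117, where the unadjusted limma p was 0.0386.

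Mycl (chr4:122995652-123002485, plus strand), the third paralog, followed the same order at still lower levels. Its values were 2.68, 0.659, 1.54 and 3.33 FPKM in the controls and 3.12, 0.519 and 0.645 FPKM in Med23 CKO. The libraries fell in the same order for Mycl as for Mycn, from WT_220 down to KO_214. The difference was -0.40 (SE 0.47, exact permutation p = 0.457, n = 4 and 3), and leaving out 1 library gave from -0.86 without KO_117 to -0.14 without KO_214, with -0.20 and -0.19 without WT_220 and KO_218.

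Myc supplied most of the transcripts of the 3 paralogs, with 86.7 to 93.3% of their summed FPKM in each library. The balance between Myc and Mycn was compared within libraries, as log2(FPKM + 1) of Myc minus that of Mycn. It was 3.43 ± 0.221 in control (SD, n = 4) and 3.26 ± 0.123 in Med23 CKO (SD, n = 3), a difference of -0.18 (exact permutation p = 0.286). With a pseudocount of 0.1 that difference was 0.14 (exact permutation p = 0.686, n = 4 and 3), and Mycn lay near 1 FPKM in 3 libraries. The direction thus depended on the pseudocount, and no shift between the paralogs was detectable.

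Max (chr12:76937269-76962201, minus strand) is the obligate partner, without which Myc and the Mxd proteins do not bind DNA. It was nearly level, at 38.6, 37.2, 32.7 and 43.3 FPKM in the controls and 42.5, 34.9 and 30.1 FPKM in Med23 CKO. The highest library was 1.44-fold above the lowest, and the groups overlapped. The difference was -0.09 (SE 0.18, exact permutation p = 0.600, n = 4 and 3). Myc, by comparison, spanned 5.74-fold, so the FPKM ratio of Myc to Max ran from 0.510 to 2.17 in the controls and from 0.474 to 1.29 in Med23 CKO. Myc exceeded its partner in 3 of the 4 controls and in 1 of the 3 CKO libraries.

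Mxd3 (chr13:55325168-55329823, minus strand), an Mxd gene known for expression in cycling rather than resting progenitors, varied most of the 10. It was at 25.3, 7.84, 9.19 and 35.01 FPKM in the controls and at 37.1, 1.79 and 8.41 FPKM in Med23 CKO. Its highest value, in KO_117, was 20.7-fold its lowest, in KO_214, so both extremes were CKO libraries. The difference was -0.77 (SE 0.90, exact permutation p = 0.600, n = 4 and 3). It was 0.15 without KO_214 and -1.74 without KO_117, where the unadjusted limma p was 0.0478. Of the exonic bases of Mxd3, 4.43% also lie in exons of Prelid1 on the opposite strand, and whether counting used strand is not given in the sources used here.

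Mxd4 (chr5:34173883-34187720, minus strand), an Mxd gene linked to withdrawal from the cycle, had the highest control mean of the network. It was at 48.7, 44.9, 54.8 and 65.4 FPKM in the controls and 38.2, 53.0 and 32.6 FPKM in Med23 CKO. KO_117 and KO_218 lay below every control, whereas KO_214 lay among them. The means were 53.5 ± 8.93 (SD, n = 4) and 41.2 ± 10.6 FPKM (SD, n = 3). The difference was -0.38 (SE 0.22), with the smallest unadjusted limma p of the 10 (0.124) and an exact permutation p of 0.171. Leaving out 1 library gave from -0.23 without KO_218 (unadjusted limma p of 0.359) to -0.57 without KO_214, the library with the highest microglia level (unadjusted limma p of 0.0310). An antisense gene, Gm42846, shares 6.06% of the exonic bases of Mxd4, and a transcript of either strand may have been counted.

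Mxd1 (chr6:86647042-86669161, minus strand), a classic antagonist induced on differentiation, was low and flat. It was at 4.17, 4.48, 4.02 and 3.43 FPKM in the controls and at 4.00, 4.80 and 3.26 FPKM in Med23 CKO, with a difference of -0.01 (SE 0.20, exact permutation p = 0.943, n = 4 and 3). Its highest and lowest values were both in CKO libraries, KO_214 and KO_218.

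Mxi1 (chr19:53310518-53375810, plus strand), also a Sin3-recruiting antagonist, was at 11.4, 10.3, 10.8 and 13.3 FPKM in the controls and at 12.9, 11.7 and 8.45 FPKM in Med23 CKO. Its difference was -0.07 (SE 0.20, exact permutation p = 0.771, n = 4 and 3). KO_218 alone lay below the controls. Gm10197 on the opposite strand shares 2.84% of the exonic bases of Mxi1.

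Mnt (chr11:74830920-74845725, plus strand), the antagonist found in dividing and resting cells alike, was at 9.87, 6.09, 5.81 and 10.7 FPKM in the controls and 10.1, 7.48 and 4.03 FPKM in Med23 CKO. Its difference was -0.18 (SE 0.34, exact permutation p = 0.629, n = 4 and 3). KO_218 again held the lowest value, and KO_117 lay near the highest.

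Mga (chr2:119897228-119969581, plus strand), a large repressor that joins a Polycomb complex, was at 8.69, 10.5, 10.1 and 6.41 FPKM in the controls and 8.40, 8.56 and 9.57 FPKM in Med23 CKO. Its difference was 0.01 (SE 0.21, exact permutation p = 0.971, n = 4 and 3). All CKO values of Mga lay inside the control range. WT_220, the library with the most Myc, had the least Mga.

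**Figure D2:**
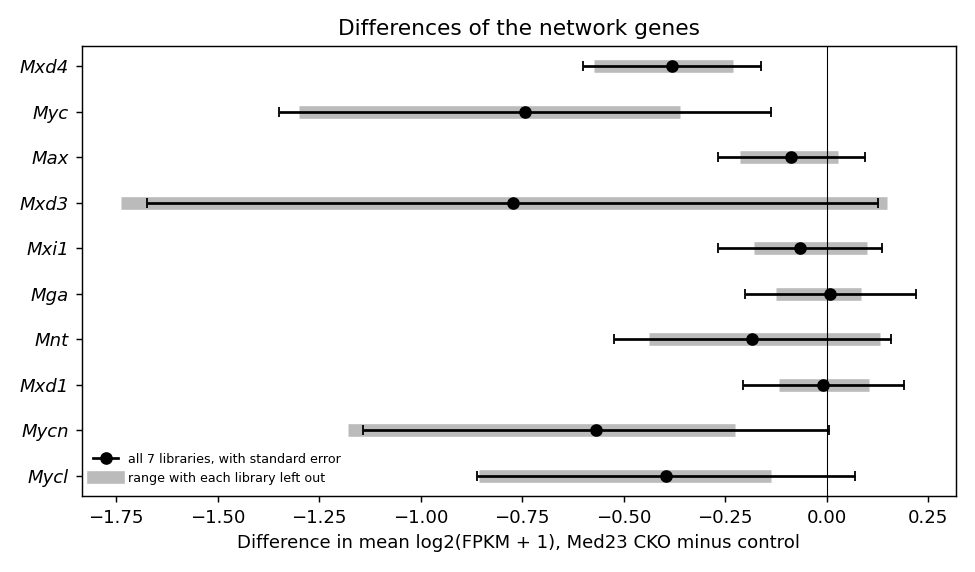
Difference between Med23 CKO and control for each of the 10 genes, on the log2(FPKM + 1) scale, as points with standard errors over 7 libraries, with grey bars for the range when each library is left out in turn. The grey bars of Max, Mxd3, Mxi1, Mga, Mnt and Mxd1 cross 0, and those of Mxd4, Myc, Mycn and Mycl stay below it.

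By control mean, the order of the FPKM levels was Mxd4 (53.5), Myc (49.3), Max (37.9), Mxd3 (19.3), Mxi1 (11.5), Mga (8.91), Mnt (8.11), Mxd1 (4.03), Mycn (3.38) and Mycl (2.05). Among neighbours in this order, Max was above Mxd3, Mnt above Mxd1 and Mycn above Mycl in 7 of 7 libraries. The other neighbours changed places between libraries, with the higher on average being higher in 3 to 5 of 7, so their order did not hold beyond the spread. Mxd4 exceeded Myc in WT_116, WT_213, KO_214 and KO_218, the 4 libraries with the lowest mean of the 29 proliferation genes, with Mxd4 to Myc ratios from 1.56 to 3.20.

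The summed FPKM of Myc, Mycn and Mycl stayed below that of the Mxd genes and Mxi1 in every library, with a ratio from 0.249 in KO_214 to 0.885 in WT_220. The make-up of the Mxd genes and Mxi1 changed more than their sum. Mxd3 made up 40.2% of the summed FPKM of the Mxd genes and Mxi1 in KO_117, 29.9% in WT_220 and 28.2% in WT_215, but 2.51% in KO_214 and 11.6 to 16.0% in the other 3 libraries. Mxd1, Mxd4 and Mxi1 together summed to between 44.3 FPKM, in KO_218, and 82.1 FPKM, in WT_220.

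The spread between libraries set the genes apart in kind. The SD of log2(FPKM + 1) over the 7 libraries was larger in Mxd3 than in 97.7% of all genes tested, and larger in Myc than in 92.1%, in Mycn than in 89.3% and in Mycl than in 81.2%. For Mnt this share was 62.1% and for Mxd4 43.9%. Mga (18.8%), Mxi1 (17.1%), Max (14.0%) and Mxd1 (8.32%) were among the steadier genes of the table.

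Mycn and Mycl followed Myc across the 7 libraries, over controls and CKO together. Pearson's r with Myc was 0.982 for Mycn (exact permutation p = 0.000397, adjusted p = 0.0351 over 14150 genes) and Spearman's rho was 0.964 (exact p = 0.00278). For Mycl, r with Myc was 0.972 (exact permutation p = 0.000397, adjusted p = 0.0351) and rho was 0.964 (exact p = 0.00278). Without WT_220 and KO_218, the libraries farthest from the median of Myc, r was 0.984 for Mycn and 0.994 for Mycl. These were 2 of the 9 other members, where 4.97% of all genes passed the same test with a positive r and 2.99% with a negative r.

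The remaining members did not pass this test. For Mxd3, r with Myc was 0.872 (exact permutation p = 0.00952, adjusted p = 0.0601), and for Mnt 0.797 (exact permutation p = 0.0403, adjusted p = 0.0989). Without WT_220 and KO_218, r with Myc was 0.924 for Mxd3 and 0.652 for Mnt. Max itself had r = 0.780 with Myc (exact permutation p = 0.0450, adjusted p = 0.105), which was 0.534 without WT_220 and KO_218, so that relation rested on them. Mga had r = -0.734 with Myc (exact permutation p = 0.0454, adjusted p = 0.105), which was -0.380 without the same libraries. Spearman's rho of Mga with Myc was -0.607 (exact p = 0.167). The genes closest to Max among the members were Mnt, with r = 0.924 (exact permutation p = 0.00337, adjusted p = 0.0921 over 14150 genes), and Mxi1, with r = 0.879 (exact permutation p = 0.00655, adjusted p = 0.102). Without KO_218 and WT_220, r with Max was 0.807 for Mnt and 0.646 for Mxi1. Of the 45 pairs of members, 33 had a positive r. All of these correlations share the same libraries, whose levels of proliferation and microglia genes differed and whose depth is unknown.

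**Figure D3:**
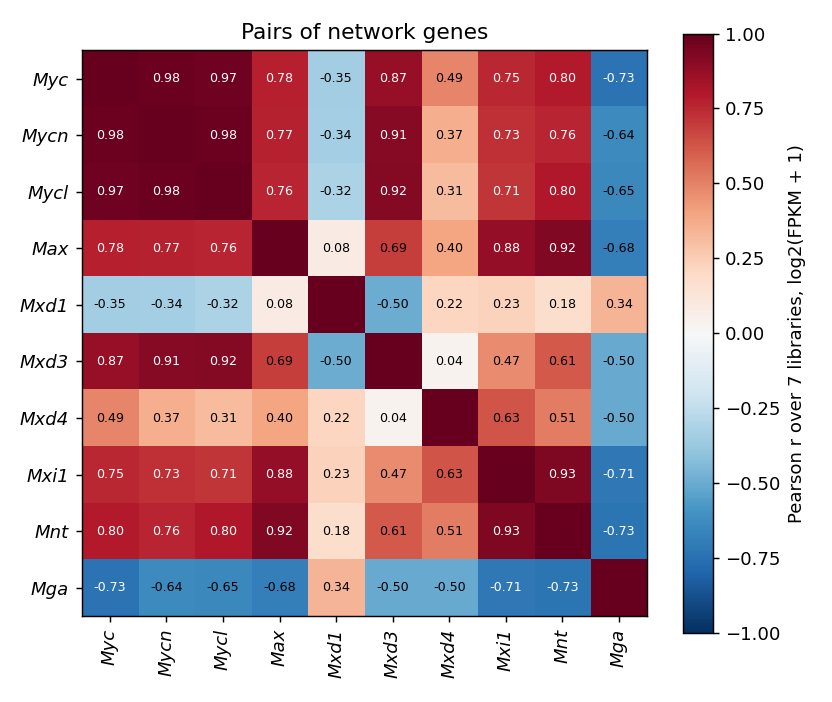
Pearson's r of log2(FPKM + 1) over 7 libraries for each of the 45 pairs of the 10 genes, red where positive and blue where negative. Myc, Mycn, Mycl and Mxd3 formed a block of high positive values (0.87 and above with Myc), Max, Mxi1 and Mnt another, and Mga was negative with Myc (-0.73). Without WT_220 and KO_218, r was 0.65 for Max with Mxi1 and -0.38 for Mga with Myc.

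Mxd3 and Mycl also followed the proliferation level of the libraries, measured as the mean log2(FPKM + 1) of 29 genes such as Mki67, Top2a and Pcna. That level was 5.49, 3.74, 4.55 and 5.59 in the controls, in the order above, and 5.98, 2.73 and 4.65 in KO_117, KO_214 and KO_218. For Mxd3, r was 0.970 (exact permutation p = 0.000397, adjusted p = 0.0139 over 14151 genes), rho was 0.964 (exact p = 0.00278), and r without KO_214 and KO_117 was 0.904. For Mycl, r was 0.887 (exact permutation p = 0.00754, adjusted p = 0.0401), rho was 0.857 (exact p = 0.0238), and r without the same libraries was 0.883. These were 2 of 10 members, where 10.9% of all genes passed with a positive r and 12.1% with a negative r. With 10 members, that count cannot be told apart from the share of all genes.

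Mycn and Myc lay just outside that threshold. Their r with the proliferation level was 0.862 (exact permutation p = 0.0123, adjusted p = 0.0519) and 0.811 (exact permutation p = 0.0260, adjusted p = 0.0776), respectively. KO_218 had a proliferation level close to that of WT_213 (4.65 and 4.55), yet Myc was at 16.4 FPKM in KO_218 and 35.2 FPKM in WT_213, and Mycn at 0.848 and 2.74 FPKM. Mxd3 did not show this gap, with 8.41 and 9.19 FPKM. This is one library against another and has no replicate. The other 6 members had adjusted p values from 0.245 to 0.887, with r from -0.60 for Mxd1 to 0.53 for Max.

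**Figure D4:**
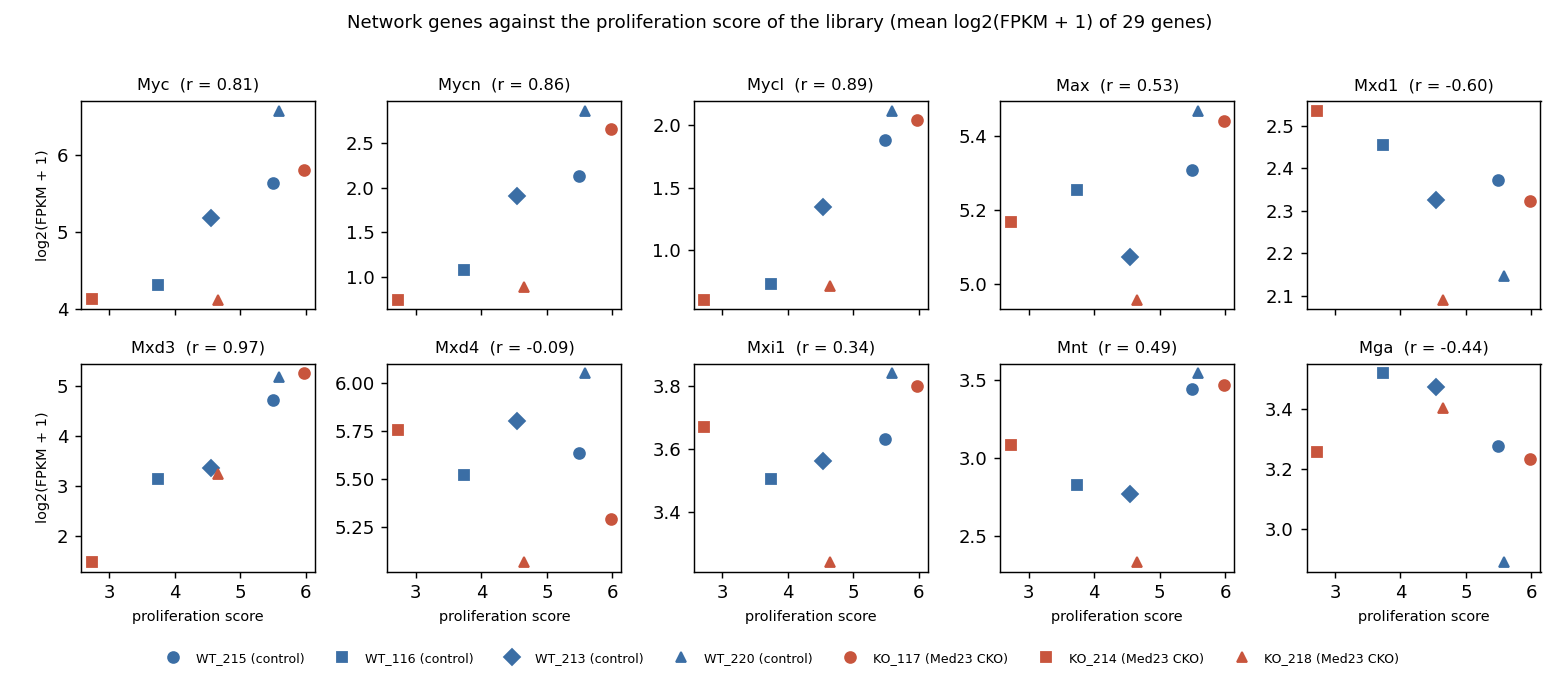
log2(FPKM + 1) of each of the 10 genes against the proliferation level of the library (mean log2(FPKM + 1) of 29 genes), with 4 control libraries in blue and 3 Med23 CKO libraries in red. Mxd3 rose along the whole range (r = 0.97), whereas KO_218 lay low for Myc, Mycn and Mycl at a middle proliferation level and Mxd4 showed no trend (r = -0.09).

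With the microglia level, 1 member passed the same test. For Mxd3, r with the mean of the 16 microglia genes was -0.981 (exact permutation p = 0.00198, adjusted p = 0.0293), rho was -0.857 (exact p = 0.0238), and r without KO_214 and KO_117 was -0.956. A share of 1 in 10 members was near that of all genes, of which 8.07% passed with a negative r and 12.6% with a positive r. Mycl (r = -0.831), Mycn (r = -0.829) and Myc (r = -0.787) did not pass, with adjusted exact permutation p values of 0.0615, 0.0635 and 0.0757. Proliferation and microglia levels ran in opposite order at both ends, so that their parts in the levels of Mxd3, Mycl, Mycn and Myc cannot be told apart over 7 libraries.

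The genes whose levels were most like those of each member were sought among about 9919 genes averaging at least 5 FPKM, by Pearson's r over 7 libraries, and the 3 closest are named. Nearest to Myc were Ckb (r = 0.995), Prr7 (0.993) and Wdr13 (0.991), and 303 genes had an r of at least 0.95 with it. Ckb, the brain creatine kinase, ran from 1282 FPKM in KO_218 to 5626 FPKM in WT_220, the same ends as Myc. Nearest to Mycn were Nkx2-2 (r = 0.996), a homeobox factor of the oligodendrocyte lineage, Jph4 (0.995) and Ruvbl1 (0.994), an ATPase of complexes that Myc recruits. Nearest to Mycl were Mtss1l, Gal3st3 and Grik5 (r = 0.997, 0.997 and 0.996). Nearest to Mxd3 were Stmn3, Mcm10, a replication factor, and Cacng7 (r = 0.994, 0.994 and 0.993).

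Nearest to Max were Pygo2, Brk1 and Ap2a1 (r = 0.995, 0.991 and 0.991), to Mxi1 Taok2, Zc3h10 and Hip1r (r = 0.994, 0.993 and 0.991), and to Mnt Fam219a, R3hdm2 and Fam65a (r = 0.997, 0.994 and 0.993). Those nearest to Mga were 1110037F02Rik, Arl5a and Api5 (r = 0.990, 0.988 and 0.987). Mxd4 and Mxd1 had few such neighbours, with 6 and 2 genes at an r of at least 0.95. Adamts14, Trim39 and Tpm1, a tropomyosin, were nearest to Mxd4 (r = 0.973, 0.960 and 0.959), and Ncoa3, Tdrd3 and Dnajb11 to Mxd1 (r = 0.953, 0.951 and 0.949).

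Genes that Myc is known to activate showed no change past the test. Of 28 genes of ribosome biogenesis, 0 passed even the unadjusted p, 24 had a negative difference and the median was -0.14. That median depended on single libraries, at -0.37 without KO_117 and -0.03 without KO_218, while the median over all genes stayed between -0.06 and 0.00 with any library left out. Fbl, the methyltransferase of ribosomal RNA, was at 136 ± 52.0 FPKM in control (SD, n = 4) and 112 ± 55.4 in Med23 CKO (SD, n = 3), a difference of -0.31 (SE 0.39). Npm1 and Ncl, abundant nucleolar proteins, had differences of 0.01 (SE 0.27) each. Of 13 genes of translation and protein folding, 10 had a negative difference and the median was -0.09 (-0.32 without KO_117, and 0.02 without WT_220 or without KO_218), with Eif5a at -0.23 (SE 0.41), Eif4a1 at -0.07 (SE 0.25) and Hspe1 at -0.09 (SE 0.16).

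Of 23 genes of metabolism and uptake, 11 had a negative difference and the median was 0.00, between -0.20 without KO_117 and 0.13 without KO_214. The glycolytic genes Eno1, Pkm and Ldha had positive differences with wide errors, 0.63 (SE 0.67), 0.60 (SE 0.44) and 0.52 (SE 0.93). Ldha ran from 143 FPKM in WT_116 to 1700 FPKM in KO_117, and WT_220 was near the top at 1398 FPKM.

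Of 18 cell cycle targets, 14 had a negative difference and the median was -0.35, which was 0.15 without KO_214 and -0.93 without KO_117. Ccnd1, a cyclin of the G1 phase, was at 798, 564, 569 and 828 FPKM in the controls and at 603, 371 and 430 FPKM in Med23 CKO. KO_117 lay among the controls, and the difference was -0.57 (SE 0.25), with an unadjusted limma p of 0.0536 and an exact permutation p of 0.171. Its partner kinase Cdk4 had a difference of -0.36 (SE 0.53), and Ccnd2 one of -0.40 (SE 0.59).

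Of 10 genes known to be repressed by Myc, 5 had a positive difference, and the median was 0.10 and moved to -0.43 without KO_214. Cdkn2b, an inhibitor of Cdk4 and Cdk6, was the 1 gene of the network and target lists at an unadjusted p under 0.05. It was at 26.6, 20.1, 28.0 and 40.0 FPKM in the controls and at 7.95, 25.9 and 10.3 FPKM in Med23 CKO. KO_117 and KO_218 lay below all controls and KO_214 among them. The difference was -1.05 (SE 0.41, unadjusted limma p = 0.0337, adjusted p = 0.9999, exact permutation p = 0.0571 for 4 against 3 libraries). Its unadjusted limma p was no longer under 0.05 in 5 of 7 fits that left out 1 library (without WT_215, WT_213, WT_220, KO_117 or KO_218), where it reached 0.112, and the difference ran from -1.52 without KO_214 to -0.73 without KO_117.

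Among proteins that work with the network, coactivators and DNA-bound partners of Myc had a median of -0.13 (14 of 16 negative), corepressors of the Mxd proteins -0.10 (10 of 12) and enzymes of Myc protein stability -0.14 (14 of 17), and none passed an unadjusted p of 0.05. These medians rested on single libraries. Without KO_117 they were -0.45, -0.32 and -0.36, and without KO_218 they were 0.02, 0.05 and 0.00, in that order. Sin3b, the scaffold that Mxd proteins bind, was at 147 ± 32.6 FPKM in control (SD, n = 4) and 131 ± 30.8 in Med23 CKO (SD, n = 3). The differences were -0.38 (SE 0.48) for Ruvbl2, -0.05 (SE 0.30) for Set, a phosphatase inhibitor, and -0.20 (SE 0.37) for Stub1, a ubiquitin ligase. Of the branch of the network built on Mlx, Mlx had a difference of -0.08 (SE 0.18) and Mlxip one of 0.07 (SE 0.20), and Mlxipl was below the filter.

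Regulators of Myc and Mycn transcription had a median of 0.04, with 9 of 17 tested genes positive, and the sign of the median changed with single libraries, from -0.20 without KO_117 and -0.08 without WT_116 to 0.17 without KO_218. Ctnnb1, the Wnt effector, was at 295 ± 32.0 FPKM in control (SD, n = 4) and 326 ± 63.7 in Med23 CKO (SD, n = 3), a difference of 0.13 (SE 0.19). Tcf7l2, its DNA-bound partner, was the 1 regulator of 17 whose CKO values (6.04, 4.33 and 5.06 FPKM) all lay above the controls (3.78, 3.73, 4.02 and 3.17 FPKM), and it is named for having been seen. Over all genes tested, 0.784% had every CKO value above every control value. The difference of Tcf7l2 was 0.39 (SE 0.19), with an unadjusted limma p of 0.0807. Pvt1, the noncoding neighbour of Myc, was also picked after its values were seen. It was at 19.8, 19.4, 19.7 and 17.1 FPKM in the controls and at 12.4, 12.6 and 18.2 FPKM in Med23 CKO, a difference of -0.40 (SE 0.19), with an unadjusted limma p of 0.0717.

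**Figure D5:**
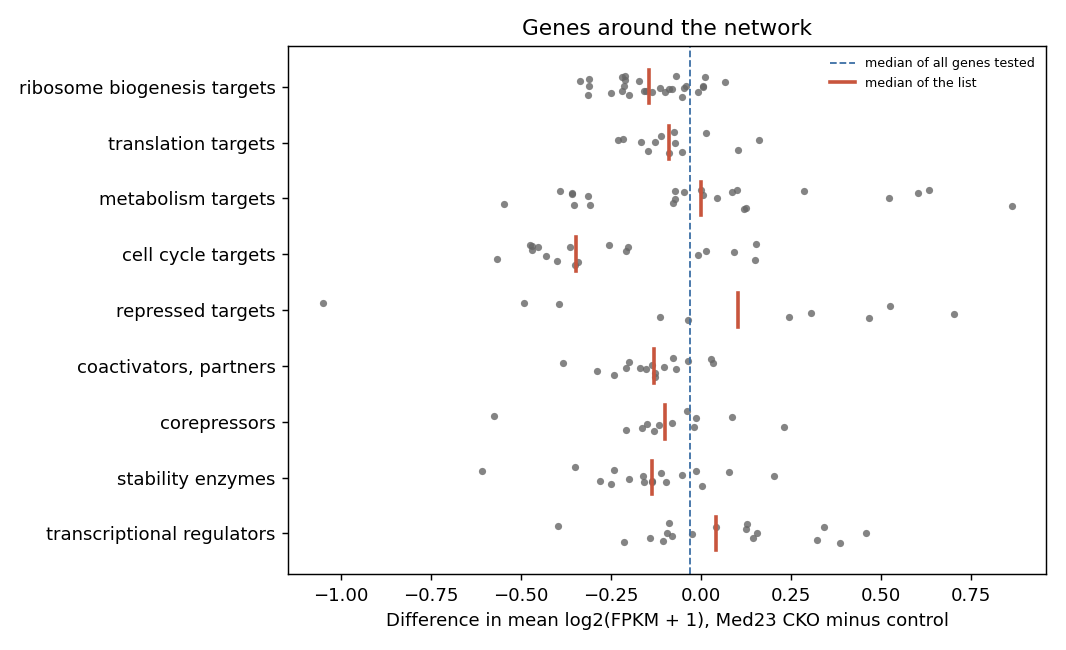
Difference between Med23 CKO and control on the log2(FPKM + 1) scale for the tested genes of 9 lists around the network, 1 grey point per gene, with the median of each list in red and that of all genes tested (-0.03) as a dashed blue line. Cell cycle targets had the lowest median (-0.35), and the gene farthest to the left is Cdkn2b (-1.05).

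Across the libraries, part of the activated targets moved with Myc, as did part of some lists that were not chosen as targets. At an adjusted p of 0.05 with a positive r, 7 of 28 genes of ribosome biogenesis passed (Fbl, Nolc1, Ubtf, Mrto4, Bysl, Ddx21 and Ppan), where 4.97% of all genes did. In metabolism 5 of 23 did (Srm, Cad, Shmt2, Impdh2 and Dctpp1), with 1 more negative, and in translation 2 of 13 did (Eif5a and Farsa). None of the 18 cell cycle targets passed with Myc, although 16 had a positive r and the median r was 0.87. With the proliferation level, 12 of these 18 passed with a positive r, as did 9 of 23 genes of metabolism, 6 of 28 of ribosome biogenesis and 3 of 13 of translation, where 10.9% of all genes did. The cell cycle targets and the proliferation genes both hold genes of the Mcm family. The count of 12 of 18 was thus partly set by the choice of the lists. Among the coactivators, Kat2a, Ruvbl1, Ruvbl2 and Zbtb17 (4 of 16) passed with Myc. The median r with Myc was 0.85 for the genes of ribosome biogenesis and -0.01 over all genes. It was 0.88 for enzymes of Myc protein stability, 0.86 for neural stem cell markers and 0.80 for the proliferation genes. A high r with Myc was thus not particular to its targets. Of the neural stem cell markers 2 of 11 passed, and of the stability enzymes 2 of 17. Markers of the other cell types had medians from -0.76 to -0.31. The lists share the libraries' differences in proliferation and microglia levels, whose part in these relations was not tested.

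The E-box letters stood in 22 of 95 promoters (23.2%) of the 4 lists of activated targets and in 1 of 11 (9.09%) of the repressed targets, against 7.15% of all promoters. By list, they stood in 6 of 30 promoters of ribosome biogenesis, 5 of 26 of metabolism, 8 of 19 of translation and 3 of 20 of the cell cycle. The E2F letters stood in 5 of 20 promoters of the cell cycle targets, 3 of 30 of ribosome biogenesis, 2 of 26 of metabolism, 0 of 19 of translation and 0 of 11 of the repressed targets, against 1.84% of all promoters.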

How the data were processed

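RNA of 7 neurosphere libraries, 4 control and 3 Med23 CKO, was sequenced. The authors removed adapters, aligned reads to mm10 with TopHat at default settings and deposited FPKM per gene from Cuffdiff. Strand setting and annotation are not given in the sources used here. The deposited group means, log2 fold changes, test scores, p-values and q-values were not used. Libraries were grouped by their labels, 0 columns were unmapped, and all 4 controls were kept. The study describes fewer control samples for its RNA-seq than the table holds and does not name those it used. Each library is 1 mouse. FPKM keeps no read counts, so depth is unknown and precision rests on how many libraries there are.

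The analysis used log2(FPKM + 1), pseudocount 1, for genes averaging at least 0.5 FPKM. A difference is Med23 CKO minus control and understates changes of low genes. limma 3.58.1 in R 4.3.3 (lmFit, eBayes with trend, two-sided, Benjamini-Hochberg over 14151 genes) was checked on simulated data. That check drew each gene on its own, so it lacked the differences between libraries that many genes share. Exact permutation tests were two-sided, over 35 assignments of the libraries to 4 and 3 (smallest p 0.0286) or, for a correlation, 5040 orders. Correlation p values were adjusted over all genes, not, as first planned, over members and levels. Relations to Myc and Max, the order of levels and the E2F letters were added after seeing the data. Python 3.11.15 with scipy 1.17.1 was used.

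The members and the 18 lists of genes were chosen with earlier results of these data known. Named were the 10 members and the 3 genes most like each. Per list, any genes at an unadjusted p under 0.05 were named or, where there were none, up to 3 with the highest mean. Of these, those bearing on the network are printed. Tcf7l2, Pvt1, some cell type markers and genes passing the relation to Myc were added after their values were seen. Positions are from GENCODE M21 on GRCm38 and promoters from RefSeq on GRCm38.p6. The alternatives tried were other pseudocounts, filters, normalizations and models, and leaving out each library.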

Additional observations from a re-analysis of the deposited data

How the results depend on the processing

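No paired analysis was possible because the labels give no litter for the mice, although the study used littermates as controls. Of 180 recomputed member differences, 161 kept their direction and side of an unadjusted p of 0.05, 13 changed sign and 6 came to pass it. With array weights, 3 members were lower instead of 0 (Myc -1.08, Mycn -0.94 and Mxd4 -0.56). The number of genes lower was 141, and 887 with array weights and 385 with the proliferation level as a covariate (chosen after seeing the data). The number higher was 71, and 193, 184 and, with no filter, 140. Leaving out each library gave 70 to 410 genes lower (70 without KO_218, 410 without KO_117), 45 to 354 higher (354 without KO_117), 0 to 1 at an adjusted p of 0.05 and 0 to 2 members lower (Mycn and Mxd3 without KO_117). Signs changed for Mxd1 centred on library medians (0.0173), for Mga with the first digit of the mouse number (-0.00119) or the proliferation level (-0.0233) as a covariate, and for Myc against Mycn with a pseudocount of 0.1 (0.14). Leaving out libraries gave Max -0.21 to 0.0288, Mxd1 -0.12 to 0.10, Mxd3 -1.74 to 0.15, Mxi1 -0.18 to 0.10, Mnt -0.44 to 0.13 and Mga -0.12 to 0.0850. With centring, 3 members instead of 1 were related to the microglia level. The cause of these changes was not tested. With 4 against 3 libraries, the SEs (0.61 for Myc and 0.90 for Mxd3) limit which changes could be detected.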
